A study of Caenorhabditis elegans with 18 samples.

Results

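The loss of met-2 was examined in worms that already lacked nrde-3, by setting 3 small RNA libraries of the strain met-2;nrde-3, called the double mutant below, against 3 libraries of the single mutant nrde-3. These are 6 of the 18 libraries of the series, chosen by the strain given in their labels. All were made from early Caenorhabditis elegans embryos that had not reached the bean stage, harvested when worms synchronised as L1 larvae had grown for 60 to 65 h. Both strains carried the allele nrde-3(tm1116) on chromosome X, and the double mutant also carried met-2(n4256) on chromosome III. For comparison, the same met-2 allele was set against wild type N2 (Bristol), a pair that shares no library with the first. Levels in set-25(n5021) and set-25;nrde-3 are given beside them. Reads were counted in 20-bp bins of genome build ce10, with both strands together, over the whole of chromosome I and the first 5.9 Mb of chromosome II, and summed to 1-kb windows. No gene names are given, since the annotation at hand was of another build, and windows are called by position.

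MET-2 is a histone methyltransferase that acts on lysine 9 of histone H3, a mark of silent chromatin that in worms lies mostly over repeats and the arms of the chromosomes. NRDE-3 is an Argonaute protein of somatic cells that binds short antisense RNAs, made by RNA-dependent RNA polymerases, and carries them into the nucleus, where nascent transcripts are silenced and histone H3 is methylated. Small RNAs at a locus can thus lie upstream of this mark, and the comparison asks how small RNA levels differ when a methyltransferase is lost from worms in which this Argonaute is already missing. The libraries covered all small RNA classes, which the 20-bp bins do not tell apart, and a change at a window may be in any of them. In bulk embryos, fewer cells making a small RNA and less of it per cell cannot be told apart.

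The libraries of met-2;nrde-3 differed among themselves. Their totals were 1680028, 2694426 and 2539942 reads in the regions covered, against 2115436, 3695174 and 2611531 for nrde-3. Replicates 1 and 2 of met-2;nrde-3 had reads in 5.76% and 7.19% of bins, and replicate 3 in 14.4%, against 11.3%, 13.7% and 11.9% of bins for nrde-3. When every library was thinned to 1000000 reads, the bins expected to hold a read numbered 54829, 62285 and 103575 for met-2;nrde-3, against 86370, 82428 and 87742 for nrde-3. Replicates 1 and 2 thus lay below, and replicate 3 above, all 3 nrde-3 libraries (exact two-sided permutation p = 0.4, with 0.1 the smallest that 3 against 3 allows). Among bins with reads outside the last 13 kb of chromosome I, those with a single read made up 16.97%, 15.8% and 34.8% in met-2;nrde-3, against 37.3%, 33.7% and 30.1% in nrde-3. In replicate 1 bins of 4 reads, at 8.90%, were as common as bins of 2 reads, at 8.92%, while in replicate 3 the same shares were 6.68% and 17.5%. Results on which replicates 1 and 2 bear are therefore also given from replicate 3 alone, a single library that the fit assumes to vary like those of the other groups.

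**Figure D1:**
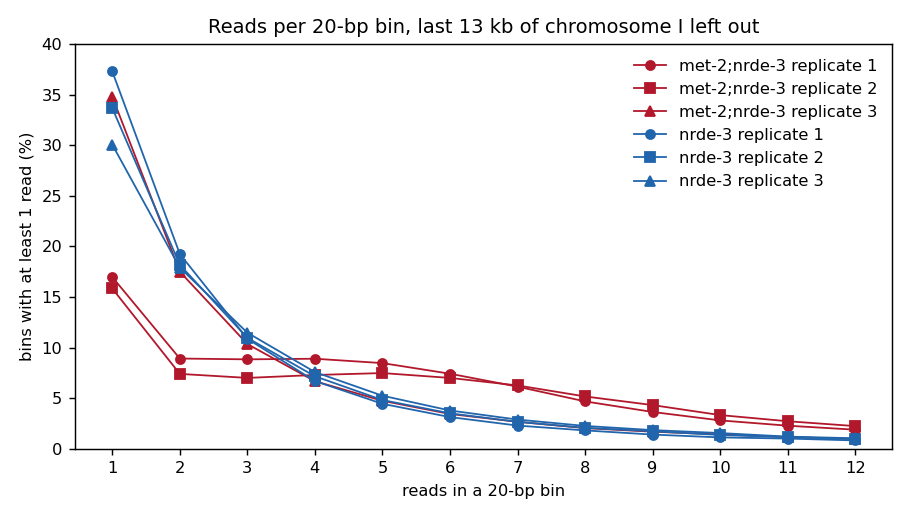
Share of occupied 20-bp bins (vertical axis, percent) that held 1 to 12 reads (horizontal axis), 1 line a library, red for met-2;nrde-3 and blue for nrde-3. The lines of met-2;nrde-3 replicates 1 and 2 start at 16.97% and 15.8%, are at 8.92% and 7.40% for bins of 2 reads and still at 8.47% and 7.48% for bins of 5 reads, while that of replicate 3 lies close to those of nrde-3.

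The genotypes could not be checked, since met-2 and nrde-3 lie on chromosomes outside the regions covered, and libraries are taken as labelled. Across the windows tested, libraries of met-2 had Spearman correlations of 0.699 to 0.799 with libraries of every other strain, while pairs of strains without met-2 and met-2;nrde-3 had 0.897 to 0.949. Libraries of met-2;nrde-3 had 0.826 to 0.944 with strains other than met-2, and 0.815 to 0.889 with each other. Each of them had higher values with the N2 libraries than with the nrde-3 libraries, 0.847 to 0.944 against 0.826 to 0.919. Their lowest were with met-2, 0.699 to 0.768. Replicate 3 had 0.935 to 0.944 with N2, and 0.857 and 0.889 with replicates 1 and 2. Libraries of set-25;nrde-3 also had a higher median with N2 than with nrde-3, 0.919 against 0.901. The cause was not tested. These are correlations across windows, which are not independent replicates. The labels number 3 libraries per strain but name 2 biological replicates, and p-values rest on library-to-library spread, which may be in part technical.

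Small RNA levels differed between met-2;nrde-3 and nrde-3 worms at a small part of the windows, in both directions. Of 10730 windows tested, 432 were higher in met-2;nrde-3 than in nrde-3, which is 4.03%, and 444 were lower, which is 4.14%, or 8.16% in all (edgeR quasi-likelihood test, Benjamini-Hochberg adjusted p under 0.05). At least 2-fold changes were called at 236 higher and 219 lower windows, 2.20% and 2.04% of those tested and 4.24% together, and at least 4-fold changes at 66 and 91. The median change was 1.06 among higher windows and -0.98 among lower windows on the log2 scale, while the median over all windows tested was -0.01. With replicate 3 alone for the double mutant, 258 windows were higher and 233 lower, of which 227 and 195 were among those called from all 3 replicates. With replicate 3 left out instead, 518 windows were higher and 1021 lower. The main fit estimated spread from all 18 libraries. With only the 2 groups compared in the fit, 210 windows were higher and 159 lower of 8375 tested. With limma's voom and sample quality weights, 281 were higher and 224 lower. TMM factors centre the changes near 0, and with library totals in their place the median over all windows moved to 0.23, and 482 windows were higher and 129 lower. The split between higher and lower windows thus depended on the scaling and on replicate 3. When windows were ranked by level and cut into 4 equal groups, in the one with the highest levels, 22.5 CPM (reads per 1000000) and above, 9.62% were higher and 9.21% lower, against 0.969% and 1.90% in the one with the lowest levels.

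The windows with the largest changes were named by a fixed rule, 12 in each direction. They pass the test, their higher group lies above the median level of 8.94 CPM, and the 3 libraries of one group lie all on one side of the other 3, so that lack of overlap is a condition and not a finding. Over all windows tested the groups did not overlap in 19.9%, with the double mutant higher in 9.25% and lower in 10.6%. All 12 rises and all 12 falls were also called with replicate 3 alone, without replicate 3, with the 2 groups fitted on their own and with limma's voom with sample quality weights. Since the rule chose large changes with separate groups, and the settings share libraries, the choice itself favours these repeated calls. Levels are normalised read counts in CPM with TMM factors. Each change is a log2 fold change ± SE, given with the adjusted p of the edgeR test.

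The largest rise lay near the right end of chromosome I, at chrI:14855020-14856019, where the 5 other strains had few reads. This window held 96.5, 152 and 140 CPM in the double mutant, against 1.81, 0.297 and 1.25 CPM in nrde-3. The rise was 6.93 ± 0.36 (adjusted p = 2.16e-13), and every met-2;nrde-3 library stood above every nrde-3 library. The level was 0.383 ± 0.432 CPM in met-2 (SD, n = 3), 0.204 ± 0.182 in set-25, 0.344 ± 0.315 in set-25;nrde-3 and 0.144 ± 0.131 in N2, so that of the 6 strains only met-2;nrde-3 had a level above 2 CPM. Its reads were spread over 14, 17 and 21 of 50 bins in met-2;nrde-3, and no bin held more than 21.0% of them in any of these libraries. The next window was also called, though not with replicate 3 alone, and the pair, chrI:14855020-14857019, held 112, 164 and 149 CPM in the double mutant, against 4.08, 3.26 and 3.11 CPM in nrde-3.

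A second set of rises had reads in the other methyltransferase mutants as well. The adjoining windows at chrI:14678020-14680019 together held 43.4, 35.9 and 37.1 CPM in the double mutant, against 0.907, 2.67 and 3.42 CPM in nrde-3, with rises of 3.21 ± 0.45 and 4.39 ± 0.31 (adjusted p = 1.25e-05 and 9.72e-11). Their sum was 20.3 CPM in met-2, 22.8 in set-25, 43.6 in set-25;nrde-3 and 2.10 in N2. At chrI:11495020-11496019 the level was 40.8, 37.6 and 31.0 CPM in the double mutant, against 1.81, 3.86 and 2.18 CPM in nrde-3, a rise of 3.72 ± 0.29 (adjusted p = 4.08e-10). The level was 43.9 ± 4.87 CPM in set-25;nrde-3, 25.8 ± 4.52 in set-25, 20.6 ± 1.63 in met-2 and 2.25 ± 1.23 in N2, the lowest of these strains. The window at chrII:2269017-2270016 held 24.7, 31.9 and 26.6 CPM in the double mutant, against 2.27, 3.26 and 2.18 CPM in nrde-3, a rise of 3.40 ± 0.26 (adjusted p = 3.05e-10). Its level was 35.0 ± 3.93 CPM in met-2, 17.8 ± 0.970 in set-25, 24.4 ± 3.30 in set-25;nrde-3 and 1.61 ± 0.346 in N2. At these 4 windows, loss of met-2 from wild type also gave a rise, of 2.94, 3.40, 3.10 and 4.43, and the test of a difference between the backgrounds was not passed (adjusted p from 0.0602 to 0.819). The window next to chrI:11495020-11496019 was also called higher in the double mutant, by 1.86, but was called lower in met-2 than in N2, by -1.67.

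Another set was high in met-2;nrde-3 and N2, and low in both nrde-3 and met-2. At chrI:304001-305000 the level was 37.5, 25.5 and 25.3 CPM in the double mutant, against 2.72, 1.19 and 2.49 CPM in nrde-3, a rise of 3.79 ± 0.38 (adjusted p = 4.20e-08). The level was 2.76 ± 0.638 CPM in met-2 and 29.6 ± 8.27 in N2. A single bin, chrI:304901-304920, held 97.1% of the reads of this window in met-2;nrde-3, with 70, 72 and 93 reads, against 2, 4 and 5 reads in nrde-3. The adjoining windows at chrI:7894001-7896000 summed to 71.9, 106 and 72.3 CPM in the double mutant, against 13.6, 10.98 and 8.41 CPM in nrde-3, with rises of 2.80 ± 0.21 and 3.26 ± 0.29 (adjusted p = 2.47e-10 and 3.16e-09). The same sum was 1.86 CPM in met-2, 81.8 in set-25, 89.6 in set-25;nrde-3 and 83.8 in N2. At chrII:2996017-2997016 the level was 322, 213 and 228 CPM in the double mutant, against 23.1, 15.4 and 54.5 CPM in nrde-3, a rise of 3.01 ± 0.25 (adjusted p = 1.11e-09). This was the most abundant of the 12 rises. The level there was 10.2 ± 2.28 CPM in met-2, 162 ± 9.25 in set-25, 18.9 ± 3.86 in set-25;nrde-3 and 376 ± 26.7 in N2. In this window 1 bin, chrII:2996397-2996416, took 83.7% of the reads in met-2;nrde-3 and 72.3% in nrde-3. The mean of set-25;nrde-3 lay within the range of the nrde-3 libraries, and all met-2;nrde-3 libraries lay above it. The next window was also called higher. The pair, chrII:2996017-2998016, held 1783, 1294 and 1778 CPM in the double mutant, against 511, 365 and 1068 CPM in nrde-3.

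The remaining 3 rises of the 12 belong to longer runs. A run of 7 adjoining windows at chrI:11169020-11176019 held 437, 516 and 514 CPM in the double mutant, against 212, 229 and 211 CPM in nrde-3. Its largest rises were 2.98 ± 0.23 at chrI:11174020-11175019 and 2.88 ± 0.31 at chrI:11173020-11174019 (adjusted p = 3.05e-10 and 1.36e-07), and the smallest was 0.68. The run held 248 CPM in met-2, 414 in set-25, 746 in set-25;nrde-3 and 279 in N2. A run of 4 windows at chrII:496017-500016 held 122, 95.7 and 107 CPM in the double mutant, against 46.2, 43.0 and 36.4 CPM in nrde-3, and its last window rose by 2.82 ± 0.41 (adjusted p = 1.80e-05).

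**Figure D2:**
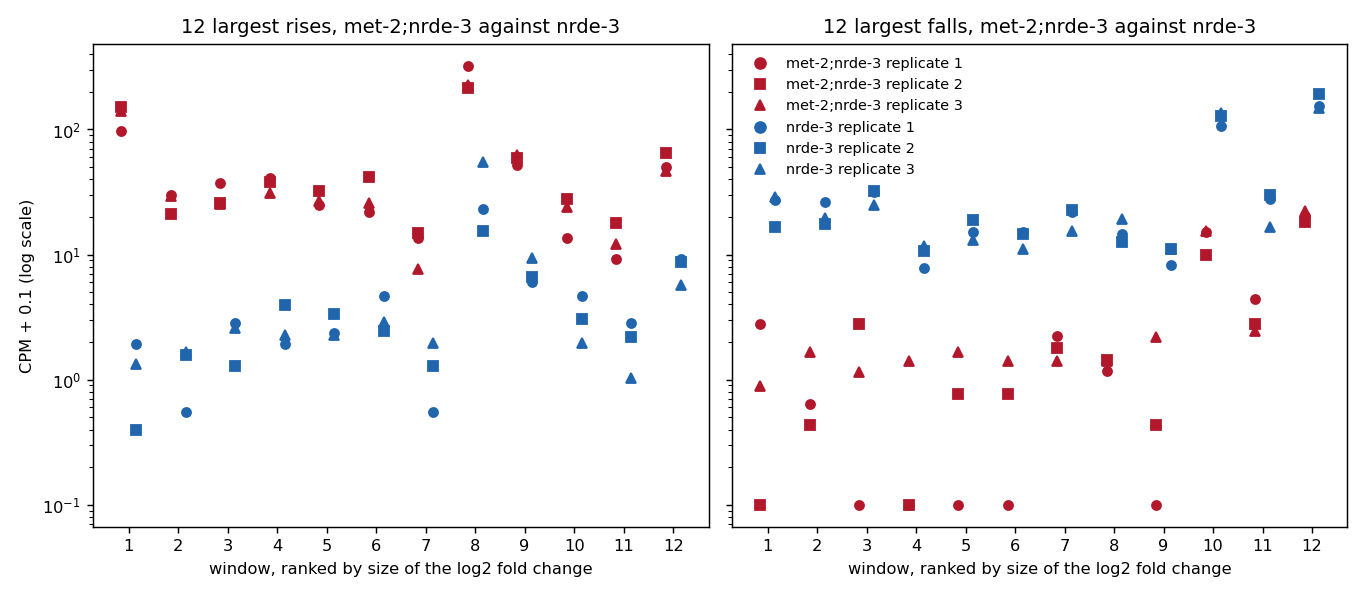
Normalised read counts (CPM + 0.1, log axis) of the 12 largest rises (left) and the 12 largest falls (right), ranked by size of change, with 1 point a library, red for met-2;nrde-3 and blue for nrde-3. The groups are separate in every window by the rule of choice, the first rise stands at 96.5 to 152 CPM in met-2;nrde-3, and in 6 of the falls a library of met-2;nrde-3 is at 0.

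Of the 12 largest falls, 10 lay on chromosome II, and 9 of these between the positions 1884017 and 2598016. Some of these windows adjoin each other. Chromosome II held 2699 of the 10730 windows tested and 125 of the 444 lower windows. In all 12, nrde-3 had the highest mean of the 6 strains, though the choice already required it to lie above met-2;nrde-3. In the same fit, set-25;nrde-3 was also called lower than nrde-3 at all 12 falls. It was called higher than nrde-3 at 10 of the 12 largest rises. Both comparisons use the same nrde-3 libraries, and the windows were chosen for a large change against them, which favours these calls. Such calls were not counted over all windows tested. The run of 5 windows at chrII:2003017-2008016 held 28.4, 23.9 and 30.2 CPM in the double mutant, against 244, 277 and 233 CPM in nrde-3. The window at chrII:2004017-2005016 carried most of these reads, with 20.4, 18.1 and 22.1 CPM in the double mutant, against 153, 192 and 149 CPM in nrde-3, a fall of -3.02 ± 0.17 (adjusted p = 9.52e-13). In its neighbours at chrII:2005017-2006016, chrII:2006017-2007016 and chrII:2007017-2008016 the changes were -4.61 ± 0.63, -4.39 ± 0.45 and -4.07 ± 0.58 (adjusted p = 7.04e-06, 6.00e-08 and 1.26e-05). The run stood at 39.96 CPM in met-2, 26.1 in set-25, 32.7 in set-25;nrde-3 and 85.6 in N2, so that nrde-3 stood above N2 and the 4 other mutants below it.

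Other falls of this stretch lay in runs as well. The run of 5 windows at chrII:1986017-1991016 held 52.0, 43.3 and 55.2 CPM in the double mutant, against 297, 318 and 287 CPM in nrde-3. It held 133 CPM in N2 and 57.4 CPM in set-25;nrde-3. In it, the window at chrII:1988017-1989016 fell by 3.21 ± 0.20 (adjusted p = 1.19e-11), to 15.02, 9.74 and 15.3 CPM in the double mutant, against 107, 128 and 135 CPM in nrde-3. Reads in this window covered 7, 4 and 18 of its 50 bins in the double mutant, against 35, 41 and 33 bins in nrde-3. The reads numbered 28, 29 and 58, against 237, 432 and 432, and fewer reads can fill fewer bins. Replicates 1 and 2 also had few bins with reads in the regions covered as a whole. The run of 4 windows at chrII:1964017-1968016 summed to 4.83, 7.73 and 5.79 CPM in the double mutant, against 48.1, 43.6 and 43.9 CPM in nrde-3, and its window at chrII:1966017-1967016 changed by -4.47 ± 0.44 (adjusted p = 3.07e-08). The run of 4 windows at chrII:1980017-1984016 summed to 2.68, 5.37 and 6.31 CPM in the double mutant, against 39.0, 39.5 and 39.2 CPM in nrde-3, with -3.56 ± 0.42 at chrII:1982017-1983016 (adjusted p = 7.18e-07). N2 held 15.3 and 15.4 CPM in these runs, and set-25;nrde-3 held 9.85 and 5.97 CPM. The windows at chrII:1884017-1885016 and chrII:2597017-2598016 changed by -3.30 ± 0.57 and -3.57 ± 0.49 (adjusted p = 2.24e-04 and 7.16e-06).

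The other falls of the 12 were single or paired windows outside that stretch. At chrI:9380001-9381000 the level was 0, 0.672 and 1.32 CPM in the double mutant, against 14.96, 14.5 and 10.9 CPM in nrde-3, a change of -4.03 ± 0.58 (adjusted p = 1.76e-05). At chrI:5312001-5313000 it was 0, 0 and 1.32 CPM in the double mutant, against 7.71, 10.7 and 11.5 CPM in nrde-3, a change of -4.08 ± 0.63 (adjusted p = 4.78e-05). Both were low in met-2 too, at 0.841 ± 0.763 and 0.759 ± 0.376 CPM, while N2 held 8.04 ± 1.49 and 7.08 ± 3.12. At chrII:855017-856016 the change was -3.04 ± 0.34 (adjusted p = 2.44e-07), with 4.29, 2.69 and 2.37 CPM in the double mutant, against 27.7, 29.7 and 16.5 CPM in nrde-3. In these windows of few reads a value of 0 comes only from replicates 1 or 2 of met-2;nrde-3, and replicate 3 held 1.32 CPM in both windows of chromosome I.

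Called windows were often adjacent. The 432 higher windows formed 306 runs, 80 of them of at least 2 windows, and the 444 lower windows formed 320 runs, 81 of them of at least 2. Another 3 long runs outside the named windows are given here, chosen after their values were seen. A run of 8 windows at chrI:3395001-3403000, the longest in either direction, held 291, 255 and 262 CPM in the double mutant, against 70.7, 71.5 and 85.0 CPM in nrde-3, with rises between 1.51 and 2.90. A run of 4 windows at chrI:3106001-3110000 held 380, 273 and 282 CPM in the double mutant, against 78.4, 79.8 and 70.7 CPM in nrde-3, and 5.66 CPM in met-2 against 150 CPM in N2. A run of 7 windows at chrI:12566020-12573019 was lower, with 439, 523 and 432 CPM in the double mutant, against 1290.1, 1266 and 1122 CPM in nrde-3. This run was low in met-2 as well, at 119 CPM, against 1067 CPM in N2. In the order given, the 3 runs held 427, 435 and 701 CPM in set-25;nrde-3. With replicate 3 alone, 5 of 8, 4 of 4 and 7 of 7 windows of these runs were called.

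Along the chromosomes, calls were most frequent between 1 and 3 Mb of chromosome II. Between 1 and 2 Mb of that chromosome 59 of 545 windows were lower, or 10.8%, and 31 were higher, or 5.69%. Between 2 and 3 Mb 46 of 456 windows were higher, or 10.1%, and 29 lower, or 6.36%, and between 3 and 4 Mb 33 of 400 were higher, or 8.25%, and 4 lower. In the first Mb 41 of 558 windows were higher and 10 lower. On chromosome I the most falls lay between 14 and 15 Mb, with 43 lower and 19 higher of 590 windows, and between 12 and 13 Mb, with 40 lower and 10 higher of 459. In the centre of chromosome I, between 8 and 9 Mb, 10 windows were higher and 10 lower of 474. With replicate 3 alone the windows between 1 and 2 Mb of chromosome II numbered 32 lower and 19 higher, those between 2 and 3 Mb 31 higher and 14 lower, and those between 3 and 4 Mb 17 higher and 1 lower. Without replicate 3 the lower windows were more numerous, with 44 higher and 33 lower in the first Mb of chromosome II, 45 and 43 between 2 and 3 Mb, and 36 and 31 between 3 and 4 Mb, so that higher windows outnumbered lower ones by less there. On the same basis 80 windows were lower and 35 higher between 1 and 2 Mb. Median changes of whole segments stayed small, from -0.13 to 0.12 among segments of 1 Mb.

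The windows called higher had a median level of 43.2 CPM in the double mutant, against 21.9 CPM in nrde-3. In single libraries this median was 46.1, 45.3 and 39.2 CPM for met-2;nrde-3, against 20.9, 21.4 and 22.3 CPM for nrde-3. Over the same windows the median was 35.3 CPM in set-25;nrde-3, 36.0 in set-25, 12.7 in met-2 and 30.7 in N2. The windows called lower had a median of 18.3 CPM in the double mutant, against 38.1 CPM in nrde-3, and of 26.7 CPM in set-25;nrde-3, 22.2 in set-25, 16.6 in met-2 and 29.1 in N2. Since the windows were chosen for their difference between met-2;nrde-3 and nrde-3, these levels are a description. The met-2 strain had the lowest median in both sets, and over all windows tested the medians of the 6 strains lay between 8.20 and 8.84 CPM.

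**Figure D3:**
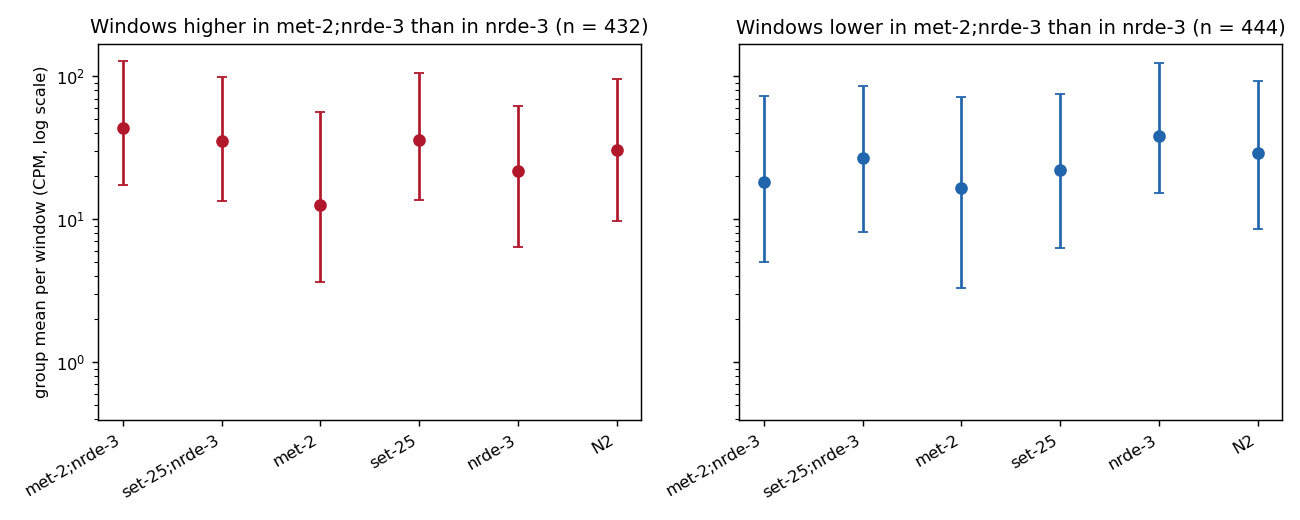
Group mean levels (CPM, log axis) in 6 strains for windows called higher (left) and lower (right) in met-2;nrde-3 than in nrde-3, with points for the median over windows and bars for the middle 50% of windows. Higher windows have their lowest median in met-2, at 12.7 CPM, and lower windows have their highest median in nrde-3, at 38.1 CPM.

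More windows were called for the same met-2 allele in wild-type worms. Against N2, 1654 windows were higher in met-2, which is 15.4% of those tested, and 2467 were lower, which is 23.0%, or 38.4% in all. Of these, 1467 and 2012 were not called in met-2;nrde-3 against nrde-3. Counts of calls also depend on depth and on the spread between libraries, which differed between the comparisons. Spearman correlations within a strain were 0.815 to 0.889 for met-2;nrde-3 and 0.925 to 0.934 for nrde-3. They were 0.958 to 0.963 for met-2 and 0.954 to 0.964 for N2. At 1292 windows at least 4-fold lower in met-2 than in N2, the median change was 0.12 in met-2;nrde-3 against nrde-3 and -2.91 in met-2 against N2. Of these windows, 107 were also lower in met-2;nrde-3 and 145 were higher. At 293 windows at least 4-fold higher in met-2 than in N2, the median change was 0.02 in the nrde-3 background and 2.81 in wild type. Of these, 36 windows were also higher and 13 lower in met-2;nrde-3. Both sets were chosen for their change in met-2 against N2, which favours large values there, so the gap between the medians is a description. A test of the difference between backgrounds (the met-2 effect in nrde-3 minus that in wild type) was passed by 3236 windows, or 30.2%, with 2013 above 0, or 18.8%, and 1223 below, or 11.4%. With library totals 3273 windows were above 0 and 346 below, and 486 were higher and 3432 lower in met-2 than in N2.

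Among windows that changed in the nrde-3 background, those that rose were more often lower than higher in met-2. Of 432 higher windows, 258 were lower in met-2 than in N2, which is 59.7% of this list and 10.46% of the met-2 list. Another 78 were higher in both, or 18.1% of this list and 4.72% of the met-2 list. Of 444 lower windows, 197 were lower in both, or 44.4% and 7.99% of the lists, and 109 were higher in met-2, or 24.5% and 6.59%. Calls in both comparisons were more frequent where levels were high, and in the group of windows with the highest levels 36.1% of windows were lower and 29.6% higher in met-2. With replicate 3 alone for the double mutant, windows higher here and lower in met-2 numbered 162, and those lower in both numbered 108. Without replicate 3, 312 windows were lower in both and 191 lower here and higher in met-2, and with library totals these counts were 73 and 19.

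**Figure D4:**
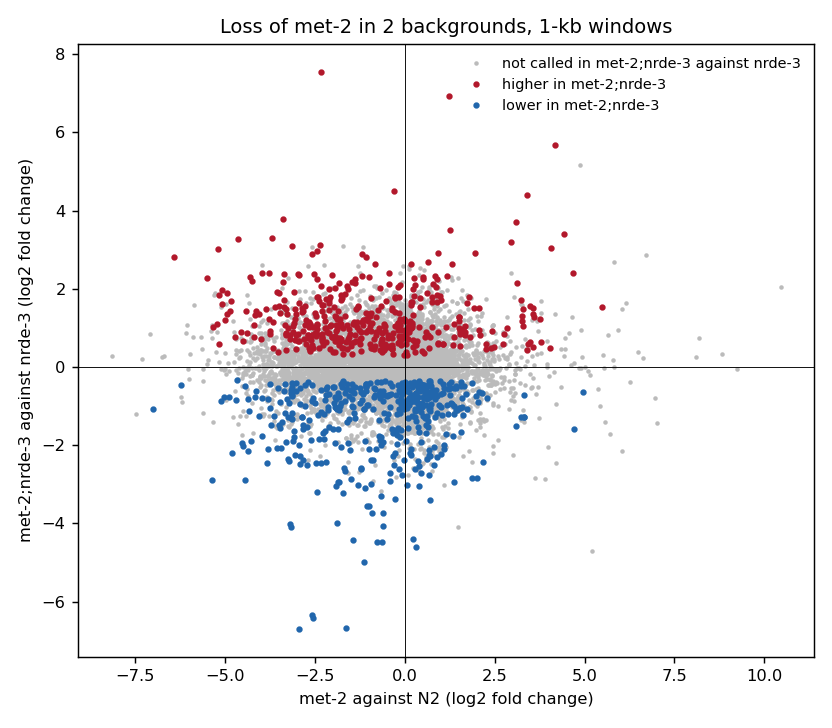
Log2 fold changes of 1-kb windows in met-2;nrde-3 against nrde-3 (vertical axis) and in met-2 against N2 (horizontal axis), which share no library, with 1 point a window, red where higher and blue where lower in met-2;nrde-3 and grey where not called. Of the 2467 windows lower in met-2 than in N2, all left of 0, 2012 are grey.

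Windows called in both backgrounds include several of those above. Besides the rises at chrI:14679020-14680019, chrI:11495020-11496019 and chrII:2269017-2270016, the window at chrI:8135001-8136000 was higher in both, by 3.04 ± 0.67 in nrde-3 (adjusted p = 0.00325) and by 4.06 in wild type, with 1.07, 6.05 and 4.21 CPM in the double mutant, against 0.453, 0.297 and 0.623 CPM in nrde-3. At chrI:3896001-3897000 the double mutant had 10, 2 and 2 reads, against 0 in every nrde-3 library, and the window was not called with replicate 3 alone, with voom or with the 2 groups fitted on their own. At chrI:12475020-12476019 met-2;nrde-3 had 0 reads and nrde-3 had 32, a level at least 10.49-fold lower when 0 is set to the 3 reads that a count of 0 allows over the group, and the change in met-2 against N2 was -2.94. The windows at chrI:10769020-10770019 and chrI:3958001-3959000 were lower in both backgrounds, with -2.89 ± 0.68 and -2.88 ± 0.74 in nrde-3 (adjusted p = 0.00626 and 0.012), but both had 0 reads in replicates 1 and 2 of met-2;nrde-3 and were not called with replicate 3 alone. These low windows rest on few reads.

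Other windows went opposite ways in the 2 backgrounds. At chrI:12506020-12507019 the level was 14.5, 11.4 and 11.3 CPM in the double mutant, against 91.6, 76.2 and 92.2 CPM in nrde-3, a change of -2.83 ± 0.22 (adjusted p = 4.1e-10), while it was 303 CPM in met-2 against 75.4 CPM in N2. A neighbour at chrI:12504020-12505019 changed by -1.58 ± 0.14 in nrde-3 (adjusted p = 3.08e-09), with 29.0, 38.6 and 31.3 CPM in the double mutant, against 92.5, 96.1 and 109 CPM in nrde-3, and stood at 2010.2 CPM in met-2 against 77.6 CPM in N2. Both windows were separate between the groups and were called with replicate 3 alone. The windows at chrII:4825017-4826016 and chrI:7848001-7849000 changed by -2.43 ± 0.63 and -1.65 ± 0.43 in nrde-3 and were higher in met-2, and chrI:7358001-7359000 rose by 3.11 ± 0.78 and was lower in met-2, none of them called with replicate 3 alone. At chrI:11425020-11426019 and chrI:3936001-3937000, which also went opposite ways, one of the groups had 2 reads in all, against 22 and 16 in the other, and no fold change is given.

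The last 13 kb of chromosome I, where the ribosomal RNA gene array lies, took 38.9%, 40.8% and 21.0% of reads in the double mutant, against 46.0%, 54.5% and 32.9% in nrde-3. The groups overlapped, and the means of 33.6% ± 10.9 and 44.5% ± 10.9 (SD, n = 3 each) did not differ beyond the spread between libraries (exact two-sided permutation p = 0.4, adjusted p = 0.4 over 3 measures). When libraries were paired by replicate number, the share was lower in the double mutant in every pair. The exact sign-flip test then gave p = 0.25, the smallest that 3 pairs allow. Of the 13 windows there, 5 were lower and 1 was higher in met-2;nrde-3, and all 13 had been higher in met-2 than in N2. The lower windows were those at chrI:15061020-15062019, chrI:15062020-15063019, chrI:15063020-15064019, chrI:15069020-15070019 and chrI:15070020-15071019, with changes from -1.11 to -1.04, none of which was called without nrde-3 replicate 2 or with the 2 groups fitted on their own. With replicate 3 alone for the double mutant, 10 windows were lower. The window at chrI:15072020-15072423, where the chromosome ends, held 41.3, 44.0 and 41.0 CPM in the double mutant, against 31.7, 21.1 and 32.7 CPM in nrde-3, a change of 0.58 ± 0.16 (adjusted p = 0.0239) that was not called with replicate 3 alone. In the other 7 windows the change ran from -0.89 to 0.37 and did not pass the test. The difference between backgrounds was passed in all 13, with values from -2.86 to -1.49.

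Chromosome II held 21.3%, 20.2% and 27.9% of reads in the double mutant, against 16.7%, 14.1% and 21.4% in nrde-3 (exact two-sided permutation p = 0.3, adjusted p = 0.4). Paired by replicate number, its share was higher in the double mutant in every pair (exact sign-flip p = 0.25, the smallest that 3 pairs allow). Among reads outside the last 13 kb of chromosome I its share was 34.8%, 34.1% and 35.3% in the double mutant, against 31.0%, 31.0% and 31.9% in nrde-3, so that the groups no longer overlapped (exact two-sided permutation p = 0.1, the smallest that 3 against 3 allows).

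**Figure D5:**
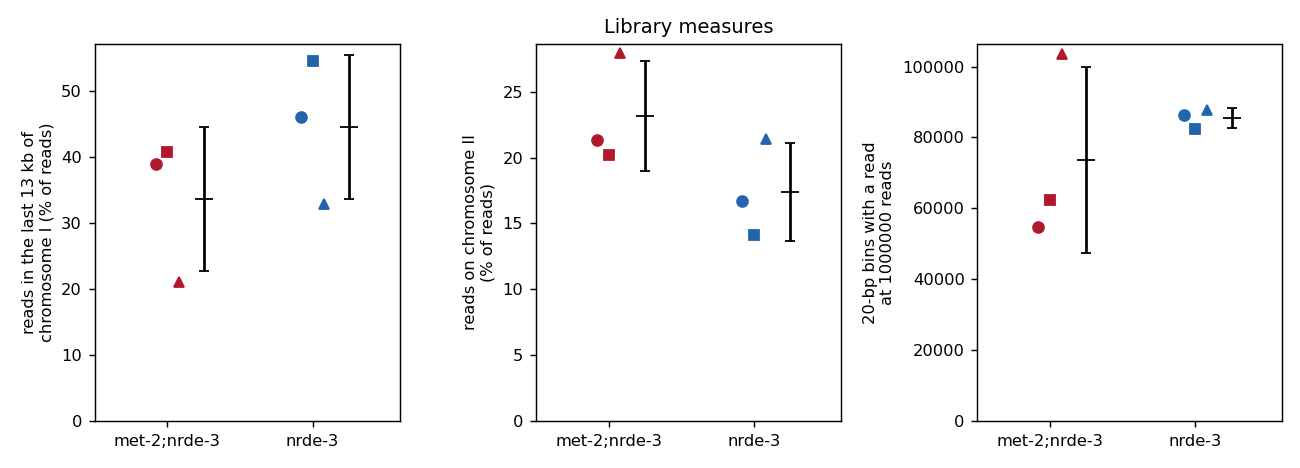
Share of reads in the last 13 kb of chromosome I (left, percent), share of reads on chromosome II (middle, percent) and 20-bp bins expected to hold a read at 1000000 reads (right) for met-2;nrde-3 and nrde-3, with 1 point a library and black bars for mean ± SD of 3 libraries. In the right plot met-2;nrde-3 replicates 1 and 2 stand at 54829 and 62285 and replicate 3 at 103575, on both sides of nrde-3.

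The 3 most abundant windows outside that end did not pass the test. At chrII:2452017-2453016 the level was 16431, 17025 and 20392 CPM in the double mutant, against 16980, 15978 and 23098 CPM in nrde-3, a change of -0.06 ± 0.13 (adjusted p = 0.857). The bin at chrII:2452857-2452876 took 99.9% of these reads in both strains. At chrI:2150001-2151000 the levels were 16184, 11379 and 10582 CPM in the double mutant, against 9077, 6306 and 11902 CPM in nrde-3, and at chrI:11061020-11062019 they were 7167, 6788 and 6096 CPM, against 6743, 5233 and 8448 CPM. Their changes were 0.48 ± 0.17 and -0.03 ± 0.17 (adjusted p = 0.0764 and 0.95), and the groups overlapped in all 3 windows. The window at chrI:2150001-2151000 was called higher under some alternatives, among them without replicate 3 of met-2;nrde-3, at 0.52, and without nrde-3 replicate 3, at 0.66.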

How the data were processed

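Small RNA was read from 18 libraries of early embryos, 3 for each of 6 strains. Per the labels' protocols, RNA was treated with tobacco acid pyrophosphatase, libraries were made with a QiaSeq miRNA kit and sequenced as single-end reads of 50 bases, adapters were clipped and reads collapsed with the FASTX-Toolkit, and reads were mapped with QuasR. The submitters' processing notes name build ce10. The values deposited by the authors are counts of reads in 20-bp bins, both strands and all read lengths together, in 1048575 bins of chromosomes I and II. The design text speaks of scaling to total reads, but the values are whole numbers with unequal totals and were treated as counts. Totals ranged over libraries as given above, and windows of few reads are the least precise. Bounds given for windows without reads cover counting error only. The SE values also take in the spread between libraries that the fit estimated.

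Bins were summed to 1-kb windows, and windows passing filterByExpr of edgeR 4.0.16 (minimum count 10) were tested with its quasi-likelihood fit on all 18 libraries, with TMM factors and Benjamini-Hochberg adjustment at 0.05, in R 4.3.3. SE is the size of the log2 fold change over the square root of F. Contrasts were met-2;nrde-3 against nrde-3, met-2 against N2, and their difference, with set-25;nrde-3 against nrde-3 given at the largest rises and falls. Library measures were tested with exact permutation tests (scipy 1.17.1). The procedure was tested on simulated data. Alternatives were other scaling, filters, DESeq2 1.42.0, limma 3.58.1 with voom, 20-bp bins, a replicate block and left-out libraries.

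The windows named are the 12 largest rises and 12 largest falls by the rule given above, some of the called windows adjoining them, the 3 most abundant windows outside the last 13 kb of chromosome I, the 13 windows of that end, and the 5 in each direction called the same way, and the opposite way, in met-2 against N2. The comparison, lists and rules were chosen with earlier results of these data known. Gene names and sequences were not used here, since the annotation at hand was of another build.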

Additional observations from a re-analysis of the deposited data

Results flagged for a closer look

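The effect of losing met-2 differed between the nrde-3 and the wild-type background at 2013 windows with a difference above 0 and 1223 below 0 (edgeR quasi-likelihood test of the met-2 effect in nrde-3 minus that in wild type, Benjamini-Hochberg adjusted p under 0.05). Values below are this difference on the log2 scale, for the named windows that passed the test. The largest rises and falls were chosen for their change in the nrde-3 background, which is a part of this difference.

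Among the largest rises it was 5.70 at chrI:14855020-14856019, 7.17 at chrI:304001-305000, 9.21 at chrI:7894001-7895000, 7.89 at chrI:7895001-7896000 and 8.22 at chrII:2996017-2997016. It was 5.46 at chrI:11173020-11174019, 5.43 at chrI:11174020-11175019 and 3.90 at chrII:499017-500016.

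Among the largest falls it was -2.64 at chrII:1884017-1885016, -3.70 at chrII:1966017-1967016, -2.49 at chrII:1982017-1983016 and -1.49 at chrII:1988017-1989016. It was -1.70, -4.92, -4.61 and -3.46 in the 4 adjoining windows at chrII:2004017-2008016, and -2.56 at chrII:2597017-2598016. In the windows at chrII:2005017-2006016 and chrII:2006017-2007016 the change in met-2 against N2 was 0.30 and 0.22, with adjusted p of 0.7 and 0.762 in the edgeR fit.

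Windows called opposite ways in the 2 backgrounds were chosen on both of the changes that make up this difference, so its size there is a description. It was 6.98 at chrI:11425020-11426019, 6.23 at chrI:7358001-7359000, -4.59 at chrII:4825017-4826016, -4.83 at chrI:12506020-12507019, -6.28 at chrI:12504020-12505019, -4.72 at chrI:3936001-3937000 and -3.22 at chrI:7848001-7849000. The values at chrI:11425020-11426019, chrI:3936001-3937000 and chrI:7358001-7359000 rest on a group with 2 reads and depend on the prior count. The same holds for chrI:14855020-14856019, with 4 reads in met-2 and 2 in N2.

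In the 3 most abundant windows outside the last 13 kb of chromosome I it was -0.55 at chrII:2452017-2453016, 1.54 at chrI:2150001-2151000 and -0.88 at chrI:11061020-11062019. In the 13 windows of that end, from chrI:15060020-15061019 on, it was -1.84, -2.80, -2.53, -2.57, -1.75, -1.79, -1.49, -1.83, -2.46, -2.54, -2.54, -2.59 and -2.86. The share of reads from this end differed between libraries of one strain, from 21.0% to 40.8% in met-2;nrde-3 and from 32.9% to 54.5% in nrde-3, and the part of this spread in these values was not tested.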

How the results depend on the processing

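The counts of windows called depended on the libraries and the test. Against 432 higher and 444 lower windows in met-2;nrde-3, there were 281 and 224 with voom and sample quality weights, 210 and 159 with only the 2 groups fitted, and 258 and 233 when the double mutant kept only its replicate 3. Library totals gave 482 and 129, and 20-bp bins 610 and 940 of 38100 bins tested. Leaving out 1 library gave 278 to 518 higher and 309 to 1021 lower. For the difference between backgrounds, library totals gave 3273 above and 346 below 0, the stricter filter 1038 and 810, and 20-bp bins 6145 and 4202. For met-2 against N2, library totals gave 486 higher, the stricter filter 1000 higher and 1122 lower, and 20-bp bins 5611 higher and 8510 lower. The settings also differed in how much was tested. The main fit tested 10730 windows, the stricter filter 3126 windows and the 20-bp setting 38100 bins. With only met-2;nrde-3 and nrde-3 fitted, 8375 windows were tested. For the other settings the cause was not tested.

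Overlaps with met-2 against N2 were recounted under alternatives chosen after seeing the data. With replicates 1 and 2 left out, 162 windows were higher here and lower in met-2, 68 lower here and higher in met-2, and 108 lower in both. The last 2 counts were 62 and 131 with voom, 19 and 73 with library totals, and 191 and 312 without replicate 3.

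The 12 largest rises and 12 largest falls kept their call and direction under each of the 16 settings in which they were tested, though the stricter filter left out some of them. These windows had been chosen for large changes with separate groups, which favours such stability. The reversed values were those of uncalled windows. The change at chrII:2452017-2453016 was 0.16 with library totals, 0.083 with voom, 0.13 with replicates 1 and 2 left out, and from -0.23 to 0.068 with 1 library left out. At chrI:11061020-11062019 it was 0.15 with library totals, 0.0048 with the stricter filter, and from -0.19 to 0.10 with 1 library left out.

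Across windows, libraries of the same number did not deviate together (correlations 0.0093, 0.0086 and -0.019). The share of reads in the last 13 kb of chromosome I, however, was highest in replicate 2 and lowest in replicate 3 of both strains. Whether the numbers pair the samples is therefore not settled. With a replicate block, 405 windows were higher and 416 lower, and 1943 and 1186 for the difference between backgrounds.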
